A study of Mus musculus with 8 samples.

Results

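The mitochondrial carriers are the proteins of the inner mitochondrial membrane that exchange metabolites between the cytosol and the matrix. They were followed here in whole kidneys of mice with a model of Alport syndrome, a hereditary kidney disease in which the type IV collagen of the glomerular basement membrane is defective. Members were all genes named Slc25a with a number, the uncoupling proteins Ucp1, Ucp2 and Ucp3, and the pyruvate carrier subunits Mpc1 and Mpc2. The array table paired 49 of them with a probe set, of 22180 genes in all, and Ucp2 and Mpc2 were not analysed here. Of the 49 members, 32 passed a filter requiring a mean log2 value over 6.64 across the 8 arrays, and 17 did not.

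Kidneys came from 2 wild type mice, 3 mice lacking Col4a3 (Col4a3-/-, here the single mutant) and 3 mice lacking both Col4a3 and osteopontin (Col4a3-/-OPN-/-, here the double mutant). All were 2 months old, total RNA was hybridized to 1 array per kidney, and strain, litter and sex are not given in the labels used here. Col4a3 encodes a chain of type IV collagen, and osteopontin is a phosphoprotein secreted by injured tubule cells. Values are log2 expression, so that a difference of 1 is a doubling, and arrays of a group are given in the order of their replicate numbers. Levels of different genes come from different probes and are not compared with each other. No sample of the groups was dropped or imputed in any value unless stated.

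Most members belong to the SLC25 family, whose proteins are built from 3 repeats of a pair of membrane helices and work by alternating between a cytosolic and a matrix-facing state. Between them the members move many substrates: adenine nucleotides and phosphate for ATP synthesis, pyruvate and dicarboxylates for the citric acid cycle, amino acids, acylcarnitines for fatty acid oxidation, and cofactors. The pyruvate carrier subunits belong to a separate, smaller family. The proximal tubule, which makes up much of the kidney cortex, depends on mitochondria for the ATP that drives reabsorption.

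Facts of the arrays bear on every comparison. Xist and 3 Y-linked genes separated the arrays into 4 read as male (both wild type, single mutant 2 and double mutant 3) and 4 read as female, so that no female wild type was measured. Each comparison with wild type is therefore given from the model of the 3 genotypes and from the same model with a term for sex, which assumes 1 common sex difference for every genotype and can estimate it only in the mutants. Col4a3 measured 8.77 and 8.42 in wild type and between 6.13 and 7.67 in the 6 mutants, and the osteopontin gene is not reported here. Nothing in the labels ties arrays to litters, and the p-values measure the spread between these mice. In whole kidney, fewer cells of a type and less RNA per cell cannot be told apart. Of the marker lists, proximal tubule markers had per-array medians between -0.51 and -0.03 relative to wild type in 5 mutants and -1.43 in single mutant 2. All 8 of 8 passed the filter. Slc13a1 among them was higher in the double mutant with the term for sex, by 0.68 (limma adjusted p = 0.0436). The 4 macrophage markers that passed the filter had per-array medians 0.73 to 2.16 above wild type in the 6 mutants. Of these, Cd68, Lyz2 and Cd14 lay under the filter level of 6.64 on both wild type arrays. They passed the filter only through the mutants, so the filter favoured a rise of this median. Csf1r, the other of the 4, overlapped between wild type and mutants. The part of these cell types in the carrier results was not tested.

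Most carrier transcripts lay below wild type in both mutants, and which of them passed the test depended on a term for sex. Slc25a21, the oxodicarboxylate carrier, Slc25a22, a glutamate carrier, Slc25a39, which is needed for mitochondrial glutathione import, and Slc25a10, the dicarboxylate carrier, lay below wild type in all 6 mutant kidneys. Slc25a24, an ATP-Mg/phosphate carrier regulated by calcium, was the only tested member that lay above wild type in all 6. Its wild type values lay under the filter level, so it was tested only because its mutant values were high. All 3 single mutants lay below both wild type mice in 20 of 32 tested members, against 29.1 percent of all 7145 genes tested. All 3 double mutants did so in 17 of 32, against 28.8 percent. All 6 mutants lay below wild type in 17 of 32 members, against 21.4 percent of genes, and above it in 1 of 32, against 13.1 percent.

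In the model of the 3 genotypes, limma called 0 of 32 members in the single mutant, where 0.028 percent of all genes were called in either direction, and 0 of 32 in the double mutant, where 0.084 percent were called. At an unadjusted p under 0.05, 9 of 32 members were lower and 1 was higher in each of these comparisons. Of all genes, 13.8 percent were lower and 9.34 percent higher at that threshold in the single mutant, and 12.8 and 8.83 percent in the double mutant. The smallest adjusted p values were 0.0682 for Slc25a21 and Slc25a22 in the single mutant. With the term for sex, 19 of 32 members were lower in the single mutant, against 19.9 percent of all genes, and 1 was higher, against 7.31 percent. In the double mutant 19 were again lower, against 17.8 percent, and 1 was higher, against 6.4 percent. The median difference of the 32 members from wild type was -0.47 in the single and -0.35 in the double mutant, against -0.07 and -0.08 over all genes. With the sex term these medians were -0.76 and -0.65, against a shift of all genes of -0.15 in both, so that the carriers lay -0.61 and -0.50 relative to it. The sign was negative for 30 of 32 members with the sex term in both mutants.

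Calls with the sex term rest on few arrays, for carriers as for the whole array. Without wild type 2, none of the 32 members passed in either mutant, and 0.924 percent of all genes did in the single and 0.98 percent in the double mutant. Without single mutant 2, the male of its group, none passed in the single mutant, nor did any gene (0 percent), and the members' median was -0.66. In the double mutant 8 members passed without wild type 1, against 12.2 percent of all genes, and 14 without single mutant 2, against 16.3 percent. Cyclic loess scaling, which moved the shift of all genes to -0.04 in both mutants, left 14 members lower and 1 higher in each. Under it the split of all genes was 814 higher and 1029 lower in the single mutant and 709 and 851 in the double mutant.

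**Figure D1:**
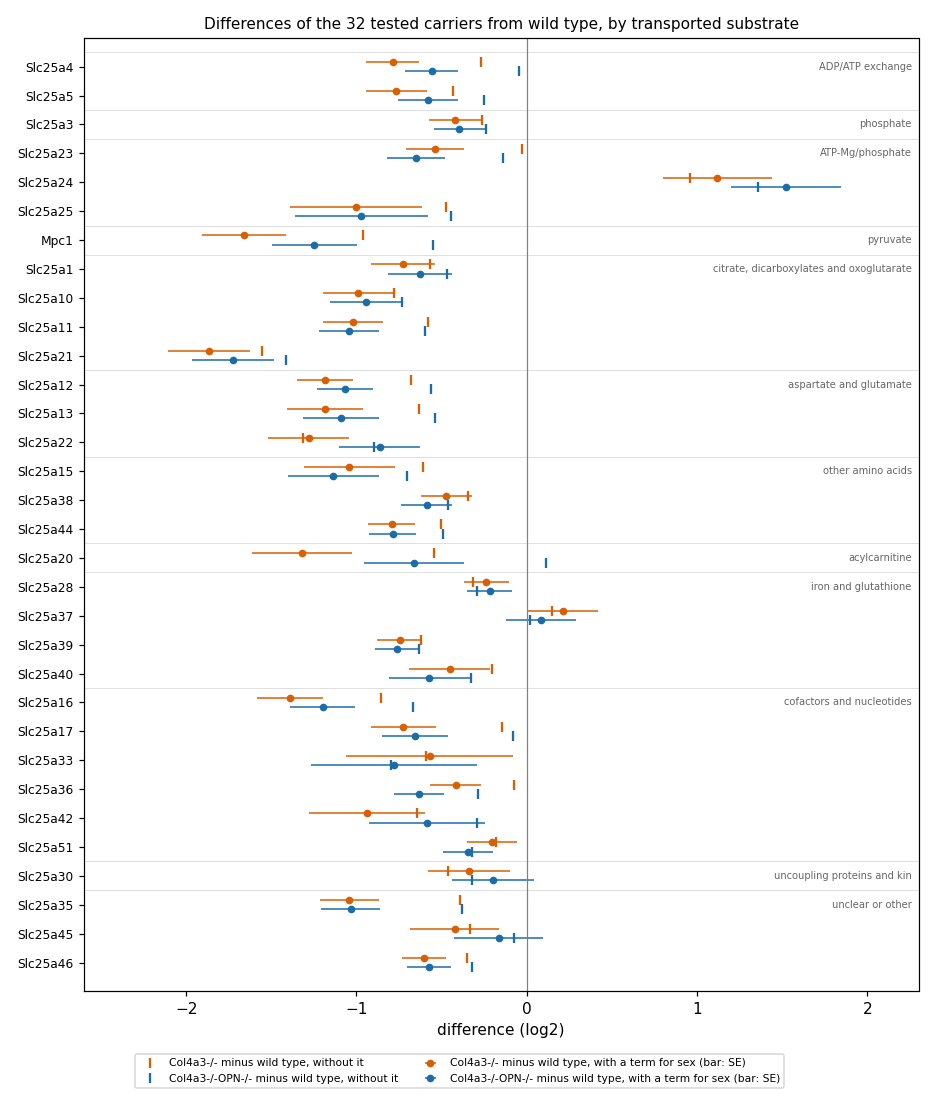
Difference from wild type (log2, horizontal axis) of the 32 tested carriers, grouped by transported substrate. Points with bars are estimates with a term for sex and their SE, vertical ticks the estimates without it, in orange for Col4a3-/- and blue for Col4a3-/-OPN-/-. With the sex term 30 of 32 lie below 0 in each mutant, and Slc25a24 lies at 1.12 and 1.52.

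Carriers of dicarboxylates and citrate were lower as a set of 4 of 4 with the sex term in both mutants. Of all genes, 19.9 percent were lower in the single and 17.8 percent in the double mutant in that fit. Slc25a21 measured 7.94 and 8.45 in wild type, 6.73, 6.15 and 7.05 in single mutants and 6.88, 6.82 and 6.66 in double mutants. No mutant reached the lower wild type value, and the male single mutant was lowest. The model of the 3 genotypes gave -1.55 (SE 0.27, adjusted p = 0.0682) and -1.41 (SE 0.27, adjusted p = 0.0688), the largest differences of any tested member in the respective mutants. Slc25a21 was lower with the sex term in both mutants, with -1.87 (SE 0.24, adjusted p = 0.00744) in the single and -1.73 (SE 0.24, adjusted p = 0.00917) in the double mutant, the former a 3.65-fold decrease. Among males alone, the 1 single mutant differed from the 2 wild type mice by -2.05 and the 1 double mutant by -1.54. Slc25a21 moves oxoadipate and oxoglutarate, intermediates of lysine and tryptophan breakdown.

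Slc25a10 measured 9.21 and 8.88 in wild type, 8.41, 7.88 and 8.498 in single mutants and 8.48, 8.18 and 8.27 in double mutants. The groups did not overlap between wild type and mutants. The sex-term fit gave -0.99 (SE 0.21, adjusted p = 0.0164) in the single and -0.95 (SE 0.21, adjusted p = 0.0201) in the double mutant. Slc25a10 exchanges malate and succinate for phosphate. Slc25a11 measured 9.53 and 9.83 in wild type, 9.19, 8.61 and 9.50 in single mutants and 9.32, 9.24 and 8.68 in double mutants. Slc25a11, which exchanges oxoglutarate for malate, also lay below wild type in every mutant, lowest in the males. Allowing for sex, the estimates were -1.02 (SE 0.17, adjusted p = 0.0106) for the single and -1.04 (SE 0.17, adjusted p = 0.0112) for the double mutant. Slc25a1 measured 9.54 and 9.78 in wild type, 9.08, 8.83 and 9.36 in single mutants and 9.09, 9.34 and 9.14 in double mutants. Slc25a1 exports citrate for fatty acid and sterol synthesis, and its mutant arrays all lay below wild type. The differences with the sex term were -0.72 (SE 0.19, adjusted p = 0.0285) in the single and -0.62 (SE 0.19, adjusted p = 0.0479) in the double mutant.

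Start-site sequences of 4 members are shown: Slc25a21, with the largest difference, Slc25a10, another dicarboxylate carrier, Slc25a20, with the largest sex difference, and Slc25a24, the 1 that rose. They are RefSeq windows of assembly GRCm38.p6, from 250 bases before to 50 after the annotated start, written 5′ to 3′ on the strand of the gene, the window listed first where a gene has several. Capitals mark matches, on either strand, to CCAAT, to CCGGAAG (an ETS-type motif), to a motif like that of NRF1 (GCGC, any 2 bases, GCGC), to a motif of estrogen-related receptors (TCA joined to AGGTCA) and to TATAAA.
Slc25a21 (chr12:57197423-57197722, minus strand): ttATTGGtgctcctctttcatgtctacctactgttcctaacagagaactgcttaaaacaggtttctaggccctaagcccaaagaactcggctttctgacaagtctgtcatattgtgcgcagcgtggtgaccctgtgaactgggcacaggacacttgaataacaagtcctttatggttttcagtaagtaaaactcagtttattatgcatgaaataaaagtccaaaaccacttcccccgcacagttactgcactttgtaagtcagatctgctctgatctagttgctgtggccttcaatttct
Slc25a10 (chr11:120491587-120491886, plus strand): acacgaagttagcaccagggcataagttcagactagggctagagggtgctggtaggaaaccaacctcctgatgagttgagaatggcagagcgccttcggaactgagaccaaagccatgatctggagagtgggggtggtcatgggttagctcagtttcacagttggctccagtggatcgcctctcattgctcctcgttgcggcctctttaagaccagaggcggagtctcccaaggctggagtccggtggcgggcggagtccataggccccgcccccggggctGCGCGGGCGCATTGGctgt
Slc25a20 (chr9:108661886-108662185, plus strand): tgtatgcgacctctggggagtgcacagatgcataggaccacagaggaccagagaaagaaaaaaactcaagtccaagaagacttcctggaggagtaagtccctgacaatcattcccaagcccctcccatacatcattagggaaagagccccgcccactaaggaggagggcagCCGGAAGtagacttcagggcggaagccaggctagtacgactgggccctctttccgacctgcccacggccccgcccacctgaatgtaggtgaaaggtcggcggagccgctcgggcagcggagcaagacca
Slc25a24 (chr3:109122899-109123198, plus strand): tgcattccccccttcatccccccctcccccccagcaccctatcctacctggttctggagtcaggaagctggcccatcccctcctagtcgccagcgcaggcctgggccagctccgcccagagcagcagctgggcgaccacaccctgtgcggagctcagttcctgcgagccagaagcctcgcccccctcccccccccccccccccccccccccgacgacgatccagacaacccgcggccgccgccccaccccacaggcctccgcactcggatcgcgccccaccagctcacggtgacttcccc
Slc25a10 holds a match to the NRF1-like motif that runs into a CCAAT match, Slc25a21 a CCAAT match at its far end, Slc25a20 a CCGGAAG match and Slc25a24 none of these letters. The GC content was 43.0 percent for Slc25a21, 59.7 for Slc25a10, 58.0 for Slc25a20 and 72.3 for Slc25a24, against a median of 52.7 percent over 27025 genes.

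Windows were found for 27 of the 32 tested members. CCGGAAG stood in 7 of these, or 25.9 percent, against 9.12 percent of all 27025 windows, and CCAAT stood in 15, or 55.6 percent, against 37.9 percent. The NRF1-like motif stood in 2, or 7.41 percent, against 6.43 percent. The estrogen-related receptor motif stood in 0, against 0.407 percent, and TATAAA in 0, against 14.2 percent. The median GC content of the 27 windows was 63.0 percent, against 52.7 percent over all 27025. Those 27025 windows were taken without the expression filter that the 27 members passed. Windows of the tested genes alone were not counted, so these shares do not set carriers apart from other genes that passed it. Of the 16 windows of members lower in the single mutant with the sex term, 5 held CCGGAAG. A match is a run of letters and not a measured binding site, and the motifs were chosen after the differences had been seen.

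Of the carriers of aspartate and glutamate, 3 of 3 tested were lower in both mutants with the sex term (all genes: 19.9 and 17.8 percent). Of these, Slc25a12 and Slc25a13 are part of the shuttle that brings reducing equivalents into mitochondria. Slc25a22 measured 7.84 and 7.67 in wild type, 6.33, 6.58 and 6.41 in single mutants and 7.23, 6.57 and 6.78 in double mutants. All mutants lay below wild type, and double mutant 1 was the nearest to it. The model of the 3 genotypes gave -1.31 (SE 0.20, adjusted p = 0.0682) and -0.90 (SE 0.20, adjusted p = 0.077). Slc25a22 was lower with the sex term in both mutants, with -1.28 (SE 0.24, adjusted p = 0.0118) in the single and -0.86 (SE 0.24, adjusted p = 0.0368) in the double mutant. This member did not separate the sexes, with a female minus male difference of -0.05 (adjusted p = 0.89).

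Slc25a12 measured 9.57 and 9.84 in wild type, 9.24, 8.59 and 9.25 in single mutants and 9.55, 9.32 and 8.57 in double mutants. Slc25a13 measured 9.12 and 9.20 in wild type, 8.99, 7.72 and 8.88 in single mutants and 8.86, 8.68 and 8.33 in double mutants. These are aralar and citrin, the aspartate-glutamate carriers, and in both the male mutants were the lowest of their groups while all 6 mutants lay below wild type. For Slc25a12 the sex term gave -1.19 (SE 0.17, adjusted p = 0.00759) and -1.07 (SE 0.17, adjusted p = 0.011). For Slc25a13 it gave -1.18 (SE 0.22, adjusted p = 0.012) and -1.09 (SE 0.22, adjusted p = 0.0163). Without it neither passed, with Slc25a12 at -0.68 and -0.56 and Slc25a13 at -0.63 and -0.54. The remaining glutamate carrier, Slc25a18, was below the filter, between 4.83 and 5.01 on all 8 arrays.

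**Figure D2:**
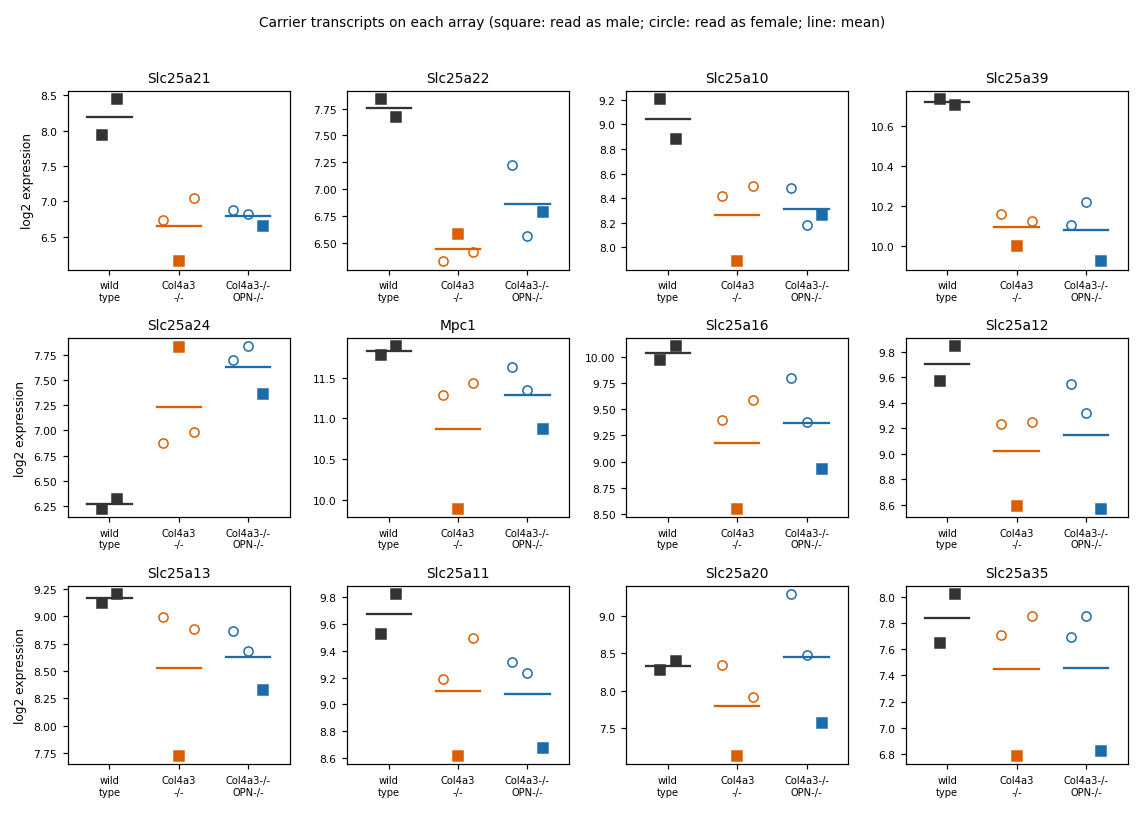
Log2 expression (vertical axis) of 12 carriers on each array, by genotype, with squares for arrays read as male, open circles for arrays read as female and a line at the group mean. Slc25a21, Slc25a22, Slc25a10 and Slc25a39 lie below wild type in all 6 mutants, Slc25a24 above, and in Slc25a20 and Slc25a35 the male mutants are lowest.

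Carriers of other amino acids were lower in 3 of 3 tested members in both mutants with the sex term. The shares of all genes were 19.9 and 17.8 percent. Slc25a15 measured 9.48 and 9.64 in wild type, 9.22, 8.19 and 9.44 in single mutants and 8.98, 8.84 and 8.75 in double mutants. Slc25a15 is the ornithine carrier that links the matrix to arginine metabolism. Its mutants all lay below wild type, with single mutant 2 lowest. The sex-term fit gave -1.04 (SE 0.27, adjusted p = 0.0279) in the single and -1.14 (SE 0.27, adjusted p = 0.0236) in the double mutant. Slc25a44 measured 7.43 and 7.59 in wild type, 7.07, 6.73 and 7.21 in single mutants and 7.16, 7.17 and 6.70 in double mutants. Slc25a44 has been described as a carrier of branched-chain amino acids, and again no mutant reached wild type. Allowing for sex, the estimates were -0.79 (SE 0.14, adjusted p = 0.0106) for the single and -0.79 (SE 0.14, adjusted p = 0.0123) for the double mutant. Slc25a38 measured 7.38 and 7.31 in wild type, 7.05, 6.98 and 6.97 in single mutants and 6.97, 7.03 and 6.65 in double mutants. Slc25a38 is needed for heme synthesis and is thought to import glycine. The differences with the sex term were -0.47 (SE 0.15, adjusted p = 0.0498) in the single and -0.59 (SE 0.15, adjusted p = 0.0282) in the double mutant, and the former lies at the edge of the threshold.

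In the iron and glutathione set, 1 of 4 tested members passed, lower in both mutants with the sex term. That count is near the shares of all genes, 19.9 and 17.8 percent. Slc25a39 measured 10.73 and 10.70 in wild type, 10.16, 10.003 and 10.13 in single mutants and 10.10, 10.22 and 9.93 in double mutants. The spread was small, and every mutant lay below both wild type arrays by more than the range within any group. The model of the 3 genotypes gave -0.62 (SE 0.13, adjusted p = 0.0911) and -0.63 (SE 0.13, adjusted p = 0.0758). Slc25a39 was lower with the sex term in both mutants, with -0.75 (SE 0.13, adjusted p = 0.0106) in the single and -0.76 (SE 0.13, adjusted p = 0.0113) in the double mutant. Its relative Slc25a40 did not pass, at -0.45 and -0.57 with the sex term.

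The mitoferrins, which import iron for heme and iron-sulfur clusters, did not pass in either fit. Slc25a28 measured 8.62 and 8.75 in wild type, 8.32, 8.48 and 8.31 in single mutants and 8.40, 8.35 and 8.44 in double mutants. Slc25a28, the more widely expressed mitoferrin, lay below wild type in all mutants, with differences of -0.31 (SE 0.12, adjusted p = 0.185) and -0.29 (SE 0.12, adjusted p = 0.222). Slc25a37 measured 7.41 and 7.10 in wild type, 7.29, 7.55 and 7.38 in single mutants and 7.51, 7.06 and 7.26 in double mutants. Slc25a37, the mitoferrin of red cell precursors, overlapped between all groups, at 0.15 and 0.02 in the same model.

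Carriers of ATP, ADP and phosphate gave a mixed picture. Slc25a4 measured 9.66 and 9.92 in wild type, 9.74, 9.07 and 9.76 in single mutants and 9.96, 10.11 and 9.17 in double mutants. Slc25a5 measured 11.94 and 12.23 in wild type, 11.84, 11.18 and 11.94 in single mutants and 11.96, 11.91 and 11.65 in double mutants. Slc25a4 and Slc25a5 are the main ADP/ATP exchangers, and the male mutants lay lowest in both. All single mutants lay below wild type in Slc25a5, while the double mutants overlapped with wild type, as did both mutants in Slc25a4. With the sex term Slc25a4 gave -0.79 (SE 0.15, adjusted p = 0.0135) and -0.56 (SE 0.15, adjusted p = 0.0372). Slc25a5 gave -0.77 (SE 0.18, adjusted p = 0.0211) and -0.58 (SE 0.18, adjusted p = 0.0504), so that it passed in the single mutant and not in the double. Slc25a5 has a pseudogene, Slc25a5-ps, and which copies its probes match was not tested.

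Slc25a3 measured 9.56 and 9.52 in wild type, 9.39, 8.99 and 9.44 in single mutants and 9.30, 9.32 and 9.27 in double mutants. Slc25a3 brings in the phosphate for ATP synthesis and did not pass, at -0.42 (SE 0.15, adjusted p = 0.0756) and -0.40 (SE 0.15, adjusted p = 0.0914) with the sex term, although all 6 mutants lay below wild type. Slc25a31, the ADP/ATP carrier of male germ cells, was below the filter.

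The ATP-Mg/phosphate carriers adjust the adenine nucleotide pool of the matrix in response to calcium. Slc25a24 measured 6.22 and 6.32 in wild type, 6.88, 7.82 and 6.98 in single mutants and 7.70, 7.83 and 7.36 in double mutants. Every mutant lay above wild type, single mutant 2 and double mutant 2 highest. Both wild type values were under the filter level of 6.64 and all 6 mutant values over it, so the mutants carried this gene past the filter. The model of the 3 genotypes gave 0.96 (SE 0.29, adjusted p = 0.132) and 1.36 (SE 0.29, adjusted p = 0.0724). The sex-term fit gave 1.12 (SE 0.32, adjusted p = 0.0385) in the single and 1.52 (SE 0.32, adjusted p = 0.0178) in the double mutant, the latter a 2.88-fold increase. With no filter on low values neither passed in limma, at an adjusted p of 0.114 and 0.0602, and without single mutant 2 the single mutant difference was 0.26 (adjusted p = 0.447). Fibroblast markers had per-array medians 1.17 to 2.74 above wild type in the 6 mutants, with single mutant 2 highest. It was also highest for Col1a1 and Col3a1, which passed the filter through the mutants. Pdgfrb and Dcn overlapped between wild type and mutants, were highest in double mutants and did not pass in either fit. The part of fibroblasts in the Slc25a24 result was not tested.

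Slc25a23 measured 8.74 and 8.78 in wild type, 8.77, 8.24 and 9.17 in single mutants and 8.81, 8.95 and 8.09 in double mutants. Slc25a23 overlapped between groups and was lowest in the males of both mutants. With the sex term it was lower in the double mutant, by -0.65 (SE 0.17, adjusted p = 0.0325), and did not pass in the single mutant, at -0.54 (SE 0.17, adjusted p = 0.0526). Slc25a25 measured 8.71 and 7.95 in wild type, 7.91, 7.11 and 8.54 in single mutants and 8.40, 7.68 and 7.57 in double mutants. Slc25a25 varied widely within each group, from 7.11 to 8.54 among single mutants, and did not pass, at -1.002 and -0.97 with the sex term.

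Pyruvate enters mitochondria through a complex of MPC1 and MPC2. Mpc1 measured 11.78 and 11.89 in wild type, 11.29, 9.89 and 11.44 in single mutants and 11.63, 11.35 and 10.87 in double mutants. All mutants lay below wild type, and single mutant 2 stood far below the rest. Allowing for sex, the estimates were -1.66 (SE 0.25, adjusted p = 0.00857) for the single and -1.25 (SE 0.25, adjusted p = 0.0157) for the double mutant, and the model of the 3 genotypes gave -0.96 and -0.55 without passing. The array has a second probe set for Mpc1, which measured 6.49 and 6.36 in wild type, 6.55, 6.38 and 6.38 in single and 6.25, 5.97 and 6.09 in double mutants. The sets disagree in the single mutant, where the second differed by 0.01. Of the 10 probe sets nearest in number to the kept one, 9 name genes of chromosome 12, which holds the pseudogene Mpc1-ps, while all 10 neighbours of the second set name genes of chromosome 17, which holds Mpc1. Which transcript the kept set measures was not tested.

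Slc25a20 measured 8.28 and 8.39 in wild type, 8.34, 7.12 and 7.91 in single mutants and 9.29, 8.48 and 7.56 in double mutants. Slc25a20 exchanges acylcarnitines for carnitine and so feeds fatty acid oxidation. Double mutants 1 and 2 were above both wild type arrays and the male mutants were below, so the groups overlapped. It was lower in the single mutant with the sex term, by -1.32 (SE 0.29, adjusted p = 0.0188), and did not pass in the double mutant, at -0.66 (SE 0.29, adjusted p = 0.127). Without the sex term the double mutant differed by 0.11.

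Among the 6 tested carriers of cofactors and nucleotides, 2 were lower in the single and 3 in the double mutant with the sex term. Over all genes these shares were 19.9 and 17.8 percent, and 2 of 6 is not far from them. Slc25a16 measured 9.97 and 10.10 in wild type, 9.40, 8.55 and 9.59 in single mutants and 9.80, 9.38 and 8.93 in double mutants. Slc25a16, linked to coenzyme A in the matrix, lay below wild type in all mutants. The differences with the sex term were -1.39 (SE 0.19, adjusted p = 0.00759) in the single and -1.20 (SE 0.19, adjusted p = 0.0112) in the double mutant. Slc25a17 measured 8.89 and 9.23 in wild type, 9.34, 8.18 and 9.22 in single mutants and 9.21, 9.17 and 8.57 in double mutants. Slc25a17, a carrier of the peroxisomal membrane, overlapped between groups, and the males of both mutants were lowest. Slc25a17 was lower with the sex term in both mutants, with -0.72 (SE 0.19, adjusted p = 0.0308) in the single and -0.66 (SE 0.19, adjusted p = 0.0442) in the double mutant. Slc25a36 measured 8.04 and 7.90 in wild type, 7.98, 7.52 and 8.20 in single mutants and 7.90, 7.77 and 7.38 in double mutants. Slc25a36 carries pyrimidine nucleotides and passed in the double mutant alone, at -0.63 (SE 0.15, adjusted p = 0.0238), against -0.42 (SE 0.15, adjusted p = 0.0721) in the single mutant.

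The NAD+ carrier Slc25a51, the coenzyme A carrier Slc25a42 and the pyrimidine nucleotide carrier Slc25a33 did not pass in either mutant. Slc25a51 measured 7.30 and 7.10 in wild type, 7.05, 7.06 and 6.95 in single mutants and 6.95, 6.89 and 6.79 in double mutants. Its mutants all lay below wild type, at -0.18 and -0.32 in the model of the 3 genotypes. Slc25a42 measured 8.997 and 8.37 in wild type, 8.06, 7.76 and 8.31 in single mutants and 9.01, 8.08 and 8.09 in double mutants, and its difference with the sex term was -0.94 in the single and -0.59 in the double mutant.

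Of the members with an unclear or other role, Slc25a35 measured 7.65 and 8.03 in wild type, 7.71, 6.78 and 7.86 in single mutants and 7.70, 7.86 and 6.82 in double mutants. In Slc25a35, an orphan carrier, the female mutants lay within the range of the wild type arrays, which were both read as male. Slc25a35 had the smallest adjusted p of the members for the sex difference. The sex-term fit gave -1.04 (SE 0.17, adjusted p = 0.01) in the single and -1.03 (SE 0.17, adjusted p = 0.0112) in the double mutant. Slc25a46 measured 9.74 and 9.63 in wild type, 9.46, 9.10 and 9.44 in single mutants and 9.50, 9.49 and 9.10 in double mutants. Slc25a46 sits in the outer membrane and takes part in mitochondrial fission and membrane shape. Its mutants all lay below wild type. Allowing for sex, the estimates were -0.60 (SE 0.13, adjusted p = 0.0165) for the single and -0.57 (SE 0.13, adjusted p = 0.0206) for the double mutant. Slc25a45 measured 7.19 and 7.45 in wild type, 6.75, 7.20 and 7.001 in single mutants and 7.45, 7.43 and 6.85 in double mutants. Its groups overlapped, and its differences with the sex term, -0.42 and -0.17, did not pass.

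Of the uncoupling proteins and their kin, 1 of 5 measured members passed the filter. Slc25a30 measured 9.03 and 9.22 in wild type, 8.64, 8.85 and 8.502 in single mutants and 9.12, 8.43 and 8.86 in double mutants. Slc25a30, also named kidney mitochondrial carrier protein, did not pass in either fit. It gave -0.46 (SE 0.22, adjusted p = 0.238) and -0.32 (SE 0.22, adjusted p = 0.413) in the model of the 3 genotypes, and -0.34 and -0.20 with the sex term. Ucp1 measured 5.36 and 5.35 in wild type, 6.98, 5.73 and 5.30 in single mutants and 6.19, 7.49 and 5.82 in double mutants. Ucp1, the heat-producing proton carrier of brown fat cells, was below the filter, and it was high in single mutant 1 and in double mutants 1 and 2, all of them female. Cidea measured 5.39 and 5.20 in wild type, 6.44, 5.73 and 5.55 in single mutants and 6.69, 6.97 and 5.64 in double mutants. Cidea, a lipid droplet protein of brown fat, was high on the same 3 arrays. Adipoq lay between 4.85 and 5.75 and Plin1 between 5.15 and 5.77, and both were highest on double mutant 2, where Ucp1 and Cidea were highest too. Whether fat on these kidneys took part in the Ucp1 values was not tested. Ucp3, of muscle and fat, lay between 4.72 and 4.99.

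**Figure D3:**
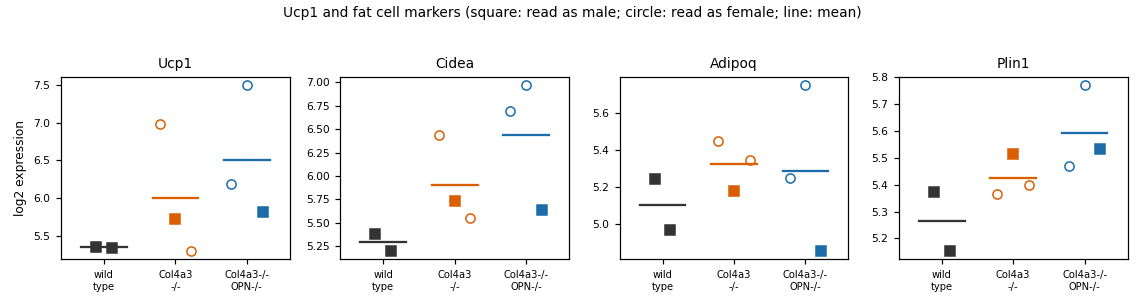
Log2 expression (vertical axis) of Ucp1 and the fat cell markers Cidea, Adipoq and Plin1 on each array, by genotype, with squares for male, open circles for female and a line at the group mean. Ucp1 and Cidea are highest on the same 3 female mutant arrays, where Ucp1 measured 6.98, 6.19 and 7.49.

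Of the 17 members below the filter, 2 were lower in the single and 1 in the double mutant when all 22180 genes were tested with the sex term. Of all 15035 genes below the filter, 1.36 and 1.19 percent were lower. Slc25a48 measured 7.02 and 6.96 in wild type, 6.67, 6.20 and 6.73 in single mutants and 6.14, 6.44 and 5.94 in double mutants. All mutants lay below both wild type arrays, and the differences were -0.74 (SE 0.12, adjusted p = 0.0322 over all genes) and -1.10 (SE 0.12, adjusted p = 0.0216 over all genes). Slc25a48 has been linked to choline import. Slc25a32 measured 6.65 and 6.71 in wild type, 6.46, 6.09 and 6.36 in single mutants and 6.69, 6.42 and 6.14 in double mutants. Slc25a32, a carrier of folate or FAD, gave -0.62 (SE 0.11, adjusted p = 0.0355 over all genes) in the single mutant, where it was lower, and -0.51 (SE 0.11, adjusted p = 0.0533 over all genes) in the double mutant, where it did not pass. The S-adenosylmethionine carrier Slc25a26 differed by -0.41 and -0.51 with the sex term, without passing.

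Mutants read as female and as male differed in many carriers. In the fit with the sex term 12 of 32 members were higher in females and 0 were lower, against 8.22 percent and 1.97 percent of all genes. The median female minus male difference was 0.44 for the members and 0.09 over all genes. All 4 female mutants lay above both male mutants in 19 of 32 members, against 29 percent of genes. The 12 were Mpc1, Slc25a4, Slc25a11, Slc25a12, Slc25a13, Slc25a16, Slc25a17, Slc25a20, Slc25a23, Slc25a35, Slc25a36 and Slc25a44. The difference was largest in Slc25a20 at 1.16 (adjusted p = 0.0249), Mpc1 at 1.05 (adjusted p = 0.0215) and Slc25a35 at 0.98 (adjusted p = 0.00945). Since no female wild type was measured, this difference is one between mutants, with 1 male in each mutant genotype. Sex therefore cannot be told apart from other traits of these males, such as the proximal tubule median of -1.43 in single mutant 2. Whether the difference holds in healthy kidneys was not tested.

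**Figure D4:**
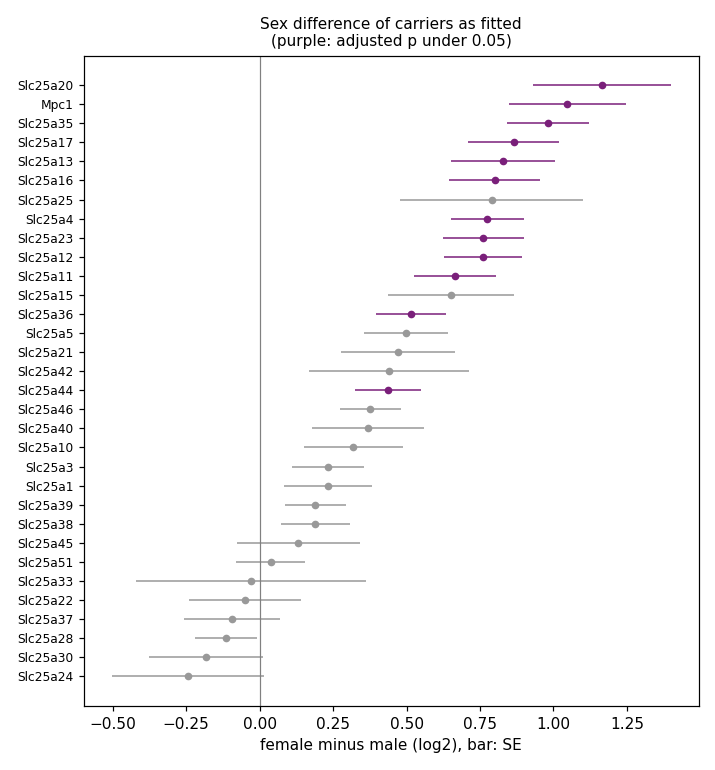
Female minus male difference (log2, horizontal axis) of the 32 tested carriers from the fit with a term for sex, with bars for the SE and purple for an adjusted p under 0.05. The 12 purple members all lie above 0, and Slc25a20, at 1.16, is highest.

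Among males alone, both mutants lay below both wild type mice in 28 of 32 members, against 47.5 percent of all genes. The median difference was -0.80 in the 1 male single mutant and -0.68 in the 1 male double mutant. Slc25a35 differed from the male wild type by -0.05 in female single and -0.06 in female double mutants, against -1.06 and -1.02 in males. Slc25a21 differed from it by -1.31 in female single and -1.35 in female double mutants, against -2.05 and -1.54 in males. Slc25a22 differed from it by -1.39 in female single and -0.86 in female double mutants, against -1.17 and -0.97 in males.

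The double and the single mutant were compared to ask whether carriers differ in an Alport kidney without osteopontin. No carrier separated them. Limma called 0 of 32 members, against 0 percent of all genes, with or without the sex term. None had an unadjusted p under 0.05 in the model of the 3 genotypes, where 0.882 percent of genes were higher and 0.574 percent lower. With the sex term 1 of 32 did, Slc25a20, against 2.34 percent of genes higher and 1.48 percent lower, so the count is near that of all genes. The median difference was 0.04 over the members and 0.0013 over all genes, and 10 of 32 members lay below 0. All 3 double mutants lay above all single mutants in 0 of 32 members, against 2.02 percent of genes, and below them in 0, against 3 percent. The largest differences were in Slc25a20 at 0.65 (SE 0.45), Slc25a22 at 0.42 (SE 0.18), Mpc1 at 0.41 (SE 0.40) and Slc25a24 at 0.40 (SE 0.26).

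The sexes did not give the same direction in each of these. Slc25a24 was 0.84 higher in female double mutants and differed by -0.46 in the males, 1 mouse of each genotype. Mpc1 differed by 0.13 in females and 0.99 in males. A test of whether the difference depends on sex called 0 of 32 members and 0 of 7145 genes in limma, with a smallest adjusted p of 0.0687 among the members. An unadjusted p under 0.05 was found for 5 of 32 members and for 12.8 percent of all genes, so the count is near that of all genes.

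Other genes of the same pathways were counted with the sex term, and from each list the tested gene with the highest mean is given, first in the single and then in the double mutant. Over all genes, 19.9 percent were lower in the single and 17.8 percent in the double mutant. The lists held 3 to 12 tested genes each. A count such as 2 of 6 is not far from those shares, while one such as 8 of 10 lies above them. Of adenine nucleotide, phosphate and ATP synthase genes 5 of 8 were lower in the single and 3 in the double mutant, and Atp5b, a catalytic ATP synthase subunit, stood at -0.53 (adjusted p = 0.0498) and -0.51 (adjusted p = 0.0581). In pyruvate entry 5 of 12 and 4 were lower, and Pck1, an enzyme of gluconeogenesis, did not pass, at -0.41 (adjusted p = 0.227) and -0.40 (adjusted p = 0.248). In citrate, malate and aspartate exchange 6 of 11 and 5 were lower, and Mdh1, the cytosolic malate dehydrogenase, did not pass, at -0.56 (adjusted p = 0.0786) and -0.58 (adjusted p = 0.0731). Carnitine and acyl genes were lower in 8 of 10 and 4, and Acadm, which oxidizes medium-chain fatty acids, did not pass, at -0.63 (adjusted p = 0.0754) and -0.65 (adjusted p = 0.0735).

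Ornithine and basic amino acid genes were lower in 3 of 6 and 2, and Aass, which starts lysine breakdown, was lower at -1.36 (adjusted p = 0.0243) and -1.09 (adjusted p = 0.0484). Iron, heme and glutathione genes were lower in 7 of 10 and 6, and Gclc, the catalytic subunit of glutathione synthesis, did not pass, at 0.28 (adjusted p = 0.598) and 0.56 (adjusted p = 0.308). Cofactor and folate genes were lower in 2 of 6 and 4, and Shmt2, the mitochondrial serine hydroxymethyltransferase, was lower at -2.40 (adjusted p = 0.00531) and -2.10 (adjusted p = 0.00407). Calcium uniporter genes were lower in 2 of 3 and 2, and Mcu, the pore, did not pass, at -0.26 (adjusted p = 0.246) and -0.12 (adjusted p = 0.603). Outer membrane relatives and import proteins were lower in 5 of 7 and 5, and Mtch2, a carrier homolog of the outer membrane, was lower at -1.18 (adjusted p = 0.00816) and -0.82 (adjusted p = 0.0175). None of these lists had a member higher in either mutant. The lists were written with earlier results of these data known.

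**Figure D5:**
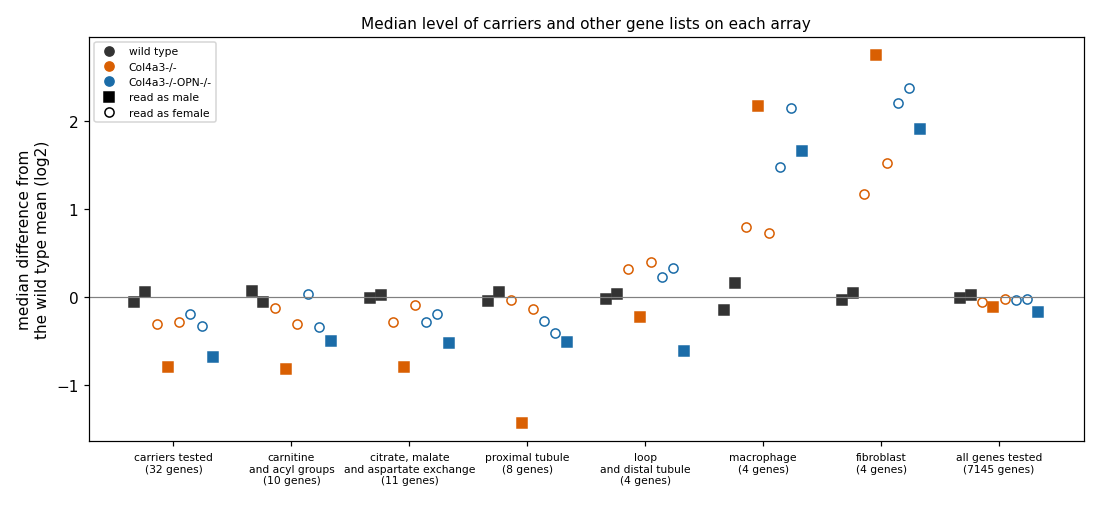
Median difference from the wild type mean (log2, vertical axis) on each array, for the 32 tested carriers, for 2 lists of metabolic partners, for cell type markers and for all 7145 genes tested. Colours give the genotype, squares arrays read as male and open circles arrays read as female. The carriers lie between -0.80 and -0.19 in the 6 mutants, lowest in the males, while macrophage and fibroblast markers lie above 0. Of these markers, Cd68, Lyz2, Cd14, Col1a1 and Col3a1 were under the filter level in wild type and passed it through the mutants.

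Array by array, the median of the 32 carriers relative to wild type was -0.31, -0.80 and -0.29 in single mutants and -0.19, -0.34 and -0.68 in double mutants. The males of both groups were lowest. The medians of the 8 proximal tubule markers were -0.03, -1.43 and -0.14 in single and -0.28, -0.41 and -0.51 in double mutants. The carrier median was the lower of the pair in single mutants 1 and 3 and in double mutant 3, and the tubule median in single mutant 2 and double mutants 1 and 2. The medians of the 4 loop and distal tubule markers that passed the filter lay 0.22 to 0.40 above wild type in female mutants. In the males they lay at -0.22 and -0.61. Pvalb, a marker of that list below the filter, went the other way in females. It measured 6.80 and 7.17 in wild type and between 5.61 and 6.59 in all mutants.

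The genes whose pattern was most like that of Slc25a21 over the 8 arrays, by Pearson correlation among the tested genes that are no members, were Slc22a2, Gys2, Tcaim, Xylb and Gm11992. Their correlations were 0.994, 0.992, 0.990, 0.990 and 0.986. Slc22a2 is an organic cation transporter of the proximal tubule, and Gys2 is the liver form of glycogen synthase. Slc22a2 differed from wild type by -1.41 in the single and -1.24 in the double mutant. The arrays share genotype and sex, so these values describe the pattern only.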

How the data were processed

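Total RNA of 8 mouse kidneys was labelled with a FlashTag biotin kit, per the labels, and measured on 1 array each, and the deposited table held 33793 probe sets. The values were read as log2 expression values from their range of 4.20 to 13.43 in the deposited table. No source used here states how the authors scaled and summarized the probes, and array medians lay between 5.18 and 5.25. A platform table named 1 gene for 23521 probe sets, several for 1814 and none for 8458. The probe set with the highest mean over all arrays stood for a gene. The test took the 7145 genes whose mean exceeded the 75th percentile of probe set means. No detection call or background level was used.

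One linear model of the 3 genotypes was fitted to all tested genes by lmFit and eBayes of limma 3.58.1 (R 4.3.3). It left 5 residual degrees of freedom, or 4 once sex was a term. P values were two-sided, and a Benjamini-Hochberg value under 0.05 across the tested genes was a call. The script was tested on simulated data.

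The members and lists were chosen with earlier results of these data known. Members with a call in either fit, or with the smallest p up to 12, are given by array, and where over 15 were called, the 15 with the largest difference. Others may be named. Of each companion list the gene with the highest mean is named. Other members shown by array were chosen after their values were seen. Promoter windows came from RefSeq. Plots were drawn with matplotlib 3.10.9. Other settings were other filters, probe set means, 3 scalings, a trended prior, array weights, 2-group fits, a replicate block, a minimum difference of 1 and leaving out each array. Their combination with the sex term was chosen after the data had been seen.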

Additional observations from a re-analysis of the deposited data

How the results depend on the processing

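Without the sex term, 0 members passed in the single mutant in every fit that left out 1 array, and 0 to 6 in the double mutant, the 6 without single mutant 2. Array weights called 5 members in the single and 7 in the double mutant, and a fit of only the 2 groups called 3 in the double mutant. The sex term called 20 in each, and its medians of -0.76 and -0.65, like those of males alone at -0.80 and -0.68, were below those of the 3-genotype model. Leaving out 1 array moved the medians of that model between -0.58 and -0.28 in the single and between -0.50 and -0.28 in the double mutant. With the sex term, leaving out 1 array gave 0 to 20 calls in the single and 0 to 18 in the double mutant. A minimum difference of 1 left 11 and 9 calls. In the double mutant 12 members passed with no filter, where more genes are tested, and 13 in the fit of only the 2 groups. The cause of the differences between fits was not tested otherwise. Shares of all genes called under most of these settings, the replicate block included, are not given here. Counts without such a share do not show whether carriers differ from other genes.

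Same-numbered single and double mutants deviated from their group means at correlations of 0.26, -0.34 and -0.58. Replicate numbers 2 and 3 each join a male with a female, so these values cannot tell whether the numbers pair the mice. With the replicate block, 20 members passed in the single and 18 in the double mutant in the fit with sex, and 0 in every comparison of the 3-genotype model. The signs that turned in the 3-genotype model belonged to differences that did not pass in it. Slc25a17 in the double mutant went to 0.0150 by quantile scaling and 0.0627 with array weights, and to between -0.25 and 0.13 without 1 array. Slc25a23 there went to 0.0499 with array weights and to between -0.31 and 0.12. Between the mutants, leaving out 1 array gave ranges of -0.0803 to 0.70 for Mpc1, -0.12 to 0.41 for Slc25a16, -0.0003335 to 0.52 for Slc25a4, -0.0496 to 0.33 for Slc25a5 and -0.19 to 0.000204 for Slc25a38. The number of arrays limits the precision.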

Other observations

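Some carriers overlapped widely between genotypes. Slc25a33 measured 8.13 and 6.81 in wild type, 7.40, 6.73 and 6.51 in single mutants and 6.35, 6.81 and 6.86 in double mutants. The highest and the lowest wild type and mutant values of this pyrimidine nucleotide carrier interleaved, and its differences with the sex term were -0.57 and -0.78 without passing. Slc25a40 measured 6.69 and 7.18 in wild type, 6.89, 6.60 and 6.70 in single mutants and 6.997, 6.57 and 6.25 in double mutants. Slc25a47, a carrier best known from liver, lay between 5.84 and 6.26 on all 8 arrays. Slc25a27, a relative of the uncoupling proteins, did not overlap: it lay at 5.72 on both wild type arrays and up to 6.11 in the mutants, all 6 above wild type, and was below the filter.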
